A study of Homo sapiens with 2 samples.

Results

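The 10 genes described here encode RNA-binding proteins that set the stability or translation of mRNAs by binding their 3′-UTR, most of them at AU-rich elements: ELAVL1, IGF2BP2, ZFP36, ZFP36L1, ZFP36L2, KHSRP, ZC3H12A, RC3H1, TIA1 and TIAL1. They were taken by gene symbol, with earlier results of these data known, and are 10 of the 49670 genes listed in the data. All 10 had a mean of at least 1 FPKM (a level in sequenced fragments that is divided by transcript length and by the depth of the library), as did 11222 genes in all. RNA-seq was performed on 2 libraries of MDA-MB-231, a human line of triple-negative breast cancer grown in L15 medium with 10% serum. One library came from cells with stable knockdown of RBMS1, itself an RNA-binding protein of mRNA 3′-UTRs, and one from control cells. The study made such cells by lentiviral delivery of an shRNA in the pLKO.1 plasmid with puromycin selection, and its methods name the empty pLKO.1 vector as the negative control. The titles of the sequenced libraries, plko_S1 and plko_ctl, name the pLKO backbone, but not whether the control vector was empty or which shRNA was used. The question asked of these data was whether regulators of 3′-UTR stability other than RBMS1 differed between both libraries. Each group has 1 library, so there was neither a check by replicates nor a test, and every value describes these 2 libraries.

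AU-rich elements are stretches of adenosine and uridine in the 3′-UTR of short-lived mRNAs, many of which encode cytokines, growth factors and early response proteins. Proteins of the ZFP36 family bind them and recruit deadenylases, KHSRP brings the mRNA to the decay machinery, ELAVL1 (HuR) competes for such sites and protects the mRNA, and TIA1 and TIAL1 hold it back from translation. ZC3H12A (Regnase-1) and RC3H1 (Roquin-1) act on many of the same inflammatory mRNAs but read stem-loops, the former as an endonuclease, and IGF2BP2 protects mRNAs mainly through other sequences. Several of these proteins also bind their own mRNA or that of another member.

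The nonamer TTATTTATT, written as DNA, is the classical core of an AU-rich element and the preferred site of the ZFP36 proteins. It was searched on the sense strand of the 3′-UTR of the coding transcript with the highest FPKM of each gene, in GENCODE release 29 on GRCh38, or, where all were listed at 0 as for ELAVL1 and 329 of the 10022 genes with a 3′-UTR in all, of the one with the longest coding sequence. It was found in 812 of the 10022 genes (8.10%), and more often in longer 3′-UTRs, in 1.44%, 6.02% and 16.9% of the genes with short, middle and long 3′-UTRs, split into 3 classes of equal size. Of the 10 binding proteins 4 carry it themselves, once each: ELAVL1, ZFP36, ZFP36L1 and ZFP36L2. Their sites are shown first, because they are the places where the mRNA of a binding protein could itself be read by the family, followed by those of 4 cytokine mRNAs whose values are given further on. Each line is the sense strand from 5′ to 3′, with the nonamer in capitals and 10 bases on either side. Positions count from the first base after the stop codon, and for mRNAs with more than 1 match the first is shown.
ELAVL1, position 1637 of a 3′-UTR of 4904 nt, chr19:7961828-7961856, minus strand: atttatgtatTTATTTATTgaagtgtgaa
ZFP36, position 507 of 713 nt, chr19:39409196-39409224, plus strand: tatgacgactTTATTTATTctaatatgat
ZFP36L1, position 1438 of 1871 nt, chr14:68788077-68788105, minus strand: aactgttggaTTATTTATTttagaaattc
ZFP36L2, position 853 of 1917 nt, chr2:43223448-43223476, minus strand: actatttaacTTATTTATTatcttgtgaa
CSF2, first of 3 matches, chr5:132076073-132076101, plus strand: tttaaaatatTTATTTATTtatttattta
CXCL1, first of 3 matches, chr4:73870674-73870702, plus strand: agtcttctatTTATTTATTtattcattag
CXCL8, its only match, chr4:73742664-73742692, plus strand: atgtaaagtaTTATTTATTtgaatctaca
IL11, first of 5 matches, chr19:55365947-55365975, minus strand: aagccagatcTTATTTATTtatttatttc
In the 4 binding proteins the nonamer stands once, while in CSF2, CXCL1 and IL11 it runs on into further copies. The nonamer was absent from the 3′-UTRs of KHSRP (764 nt), ZC3H12A (768 nt), RC3H1 (7507 nt), IGF2BP2 (1792 nt), TIA1 (2515 nt) and TIAL1 (228 nt), and from that of RBMS1 (2620 nt). A match describes the sequence and is not evidence of binding in these cells.

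RBMS1, the targeted gene, was at 3.76 FPKM after RBMS1 knockdown and 24.1 FPKM in the control, 15.6% of control, with a log2 ratio of -2.40, in the direction of the labels. Its paralogs RBMS2 and RBMS3 had log2 ratios of -0.04 and -0.11. The log2 ratio is that of (FPKM + 1) in RBMS1-depleted over control cells, which understates the change of low genes, and its median over the 11222 genes was 0.02. The depth estimated from the intervals of Cufflinks was about 44000000 fragments for the knockdown and 40300000 for the control library. All 7 genes listed as high in MDA-MB-231, were present, with log2 ratios from TGFBI (-1.33, at 6.59 FPKM after RBMS1 knockdown and 18.1 FPKM in the control) and CD44 (-0.41) to CAV1 (0.58) and FN1 (0.64). Of 12 genes listed as low or absent in this line 10 were below a mean of 1 FPKM, including the oestrogen receptor gene ESR1 and the leukocyte gene PTPRC, while EPCAM (1.93 and 3.66 FPKM) and GATA3 (2.11 and 1.56 FPKM) were above it. The part of these marker values in the results below was not tested.

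Among the 10 binding proteins, 1 differed at least 2-fold between the libraries, ZC3H12A, which was lower in RBMS1-depleted cells. Of all 11222 genes 5.63% differed at least 2-fold in either direction and 2.72% were at least 2-fold lower. At a 1.5-fold difference ZFP36, which was higher, joined ZC3H12A, against 12.6% of all genes, 5.91% on the lower and 6.7% on the higher side. The median log2 ratio of the 10 was -0.10, with 7 lower and 3 higher, beside a median of 0.02 over all genes, of which 47.2% were lower. Cufflinks gives each transcript a 95% interval for the uncertainty within a library, which covers no difference between cultures. Summed over a gene, these intervals did not overlap for 4 of the 10, ZC3H12A, ZFP36L1 and KHSRP on the lower side and ZFP36 on the higher side, while 24.5% of all genes had intervals that did not overlap, 11.3% on the lower and 13.1% on the higher side. The differences of ZFP36L1 and KHSRP depend on the transcripts summed, as described below.

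**Figure D1:**
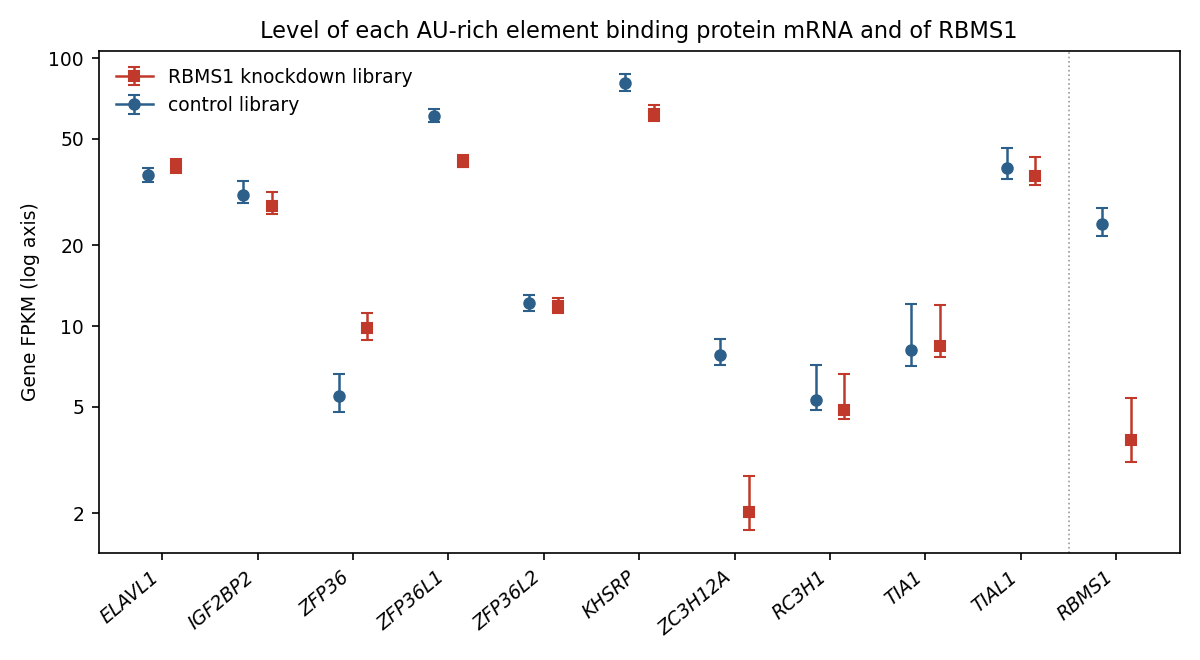
Level of the 10 binding protein mRNAs and of RBMS1 in FPKM on a log axis, with the control library as blue circles and the RBMS1 knockdown library as red squares. Vertical lines are the within-library intervals of Cufflinks summed over the gene, and the pairs of ZC3H12A (2.02 against 7.81 FPKM), ZFP36 (9.82 against 5.50), ZFP36L1 (41.2 against 60.8) and KHSRP (61.7 against 80.7) stand apart.

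ZC3H12A, which lies on chromosome 1 from 37474552 to 37484379 on the plus strand, encodes the endonuclease that cleaves mRNAs of IL6 and other inflammatory genes. It was at 2.02 FPKM in RBMS1-depleted cells, with an interval of 1.73 to 2.77. In control cells it was at 7.81 FPKM, with an interval of 7.15 to 8.94. It thus fell to 25.9% of the control level, a log2 ratio of -1.54, which has rank 189 from the lowest of the 11222 genes. At the estimated depths these values stand for about 217 and 767 fragments. In a library of bulk cells, fewer cells with the mRNA and less of it per cell cannot be told apart. All of the signal came from 1 transcript with 6 exons, ENST00000373087, out of 3 listed for the gene. In the deposited table of both libraries, which is on a scale of its own, the same transcript was at 3.91 FPKM after RBMS1 knockdown and 14.4 FPKM in the control. In RBMS1-depleted cells an assembled transcript of 6193 nt without an intron, from 37474713 to 37480905 in the same locus, was listed at 1.17 FPKM and is not in the gene value. In control cells 2 such pieces inside the gene, together 1900 nt, were listed at 1.90 and 4.45 FPKM. Of these only the transcript in RBMS1-depleted cells shares the Cufflinks locus of ZC3H12A. With it added, and the control pieces left out, the log2 ratio was -1.07, so this addition is one-sided. A pseudocount of 5 FPKM gave -0.87, which is below 2-fold.

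The 3 members of the ZFP36 family, which recruit the deadenylation machinery to AU-rich elements, differed among themselves. ZFP36 (tristetraprolin; chromosome 19, 39406813 to 39409412, plus strand) was at 9.82 FPKM after RBMS1 knockdown and 5.50 FPKM in the control. The intervals ran from 8.85 to 11.2 and from 4.78 to 6.62, so the level in RBMS1-depleted cells was the higher, 1.79-fold by FPKM and 0.74 as a log2 ratio. This is below 2-fold, and the ratio has rank 489 from the highest of the 11222 genes. The signal came from ENST00000597629, a transcript of 2 exons, and stands for about 663 and 341 fragments. An unspliced assembled transcript that covers the single intron of the gene was listed beside it at 9.76 FPKM after RBMS1 knockdown and 5.41 FPKM in the control. It also covers the exons, so the spliced and the unspliced estimate can share reads. Their nearly equal ratios are thus not independent of each other. In the deposited table of both libraries ENST00000597629 was at 32.1 and 17.8 FPKM.

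ZFP36L1 (chromosome 14, 68787660 to 68796253, minus strand) was the most abundant of the family. It was at 41.2 FPKM after RBMS1 knockdown and 60.8 FPKM in the control, 67.7% of control, with a log2 ratio of -0.55. The intervals, 39.1 to 43.6 and 57.6 to 64.5, did not overlap. The size of this difference depends on the transcripts summed. ENST00000439696 alone was at 41.2 FPKM, with an interval of 39.1 to 43.2, in RBMS1-depleted cells. In control cells it was at 50.04 FPKM, with an interval of 47.6 to 52.5, a log2 ratio of -0.28. In the deposited table of both libraries, on its own scale, this transcript was at 67.8 and 94.2 FPKM, or -0.47 on the log2 scale. The remaining 10.8 FPKM in control cells belong to an assembled transcript of 3765 nt and 2 exons that was not listed in RBMS1-depleted cells. There, 2 intronless pieces inside the gene were listed instead, at 14.6 and 21.3 FPKM over 557 nt in all, and are not in the gene value. ZFP36L2 (chromosome 2, 43222402 to 43226609, minus strand) was at 11.9 and 12.2 FPKM, with intervals of 11.2 to 12.7 and 11.4 to 13.0 that overlap and a log2 ratio of -0.03.

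KHSRP and RC3H1 also promote decay. KHSRP (chromosome 19, 6413348 to 6424794, minus strand), a KH-domain protein that binds AU-rich elements, was the most abundant of the 10. It was at 61.7 FPKM in RBMS1-depleted cells, with an interval of 58.4 to 66.9, and at 80.7 FPKM in control cells, with an interval of 75.7 to 87.7. This is 76.4% of control, with a log2 ratio of -0.38. At the estimated depths these values stand for about 8812 fragments of 44000000 after RBMS1 knockdown and 8007 of 40300000 in the control. The number of fragments was thus not lower after RBMS1 knockdown, and the ratio depends on the transcripts summed. ENST00000398148 was at 23.5 FPKM in both libraries, and ENST00000619396, which has as many exons but is 2230 nt long against 2993 nt, was at 22.6 FPKM in control cells and listed at 0 in RBMS1-depleted cells. An assembled transcript of 17 exons and 3810 nt was at 38.1 FPKM after RBMS1 knockdown. Another of 7 exons and 2830 nt was at 34.6 FPKM in control cells. Summing reference transcripts alone gave -0.94 on the log2 scale, and ENST00000398148 alone gave 0.01.

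RC3H1 (chromosome 1, 173931214 to 174022297, minus strand) was at 4.85 FPKM after RBMS1 knockdown and 5.28 FPKM in the control, with overlapping intervals and a log2 ratio of -0.10. Its main transcript ENST00000367696 was at 3.87 and 4.19 FPKM, and in each library 1 assembled transcript made up the rest. An intronless transcript of 6014 nt in the same locus was listed at 2.44 FPKM in RBMS1-depleted cells and is not in the gene value. Intronless pieces inside the gene numbered 17 in RBMS1-depleted cells (28921 nt in all) and 9 in control cells (12736 nt), and of these only the former transcript shares the Cufflinks locus of RC3H1. With it the log2 ratio was 0.40, so RC3H1 has no settled direction.

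The 2 genes whose products protect mRNAs had log2 ratios near that of all genes. ELAVL1 (chromosome 19, 7958579 to 8005659, minus strand) was at 39.5 FPKM in RBMS1-depleted cells, with an interval of 37.4 to 41.9. In control cells it was at 36.5 FPKM, with an interval of 34.5 to 38.8, so the intervals overlapped and the log2 ratio was 0.11. All 5 release 29 transcripts of ELAVL1 were listed at 0 in both libraries. The signal sat in ENST00000351593, an Ensembl transcript that release 29 does not hold, which shares 4 introns with ELAVL1. It has 8 exons, of which 5, with 2208 nt, lie inside ELAVL1 and 3, with 104 nt, lie beyond the 5′ end of the gene, for a span of 483 kb. Its 3′ end leaves out 3696 nt of the gene, among them the nonamer site shown above, so the FPKM of ELAVL1 was measured on exons inside the gene and the first part of the 3′-UTR. That such transcripts were counted was settled after ELAVL1 had been seen at 0. IGF2BP2 (chromosome 3, 185643739 to 185825056, minus strand) was at 28.1 FPKM after RBMS1 knockdown and 30.8 FPKM in the control, with overlapping intervals and a log2 ratio of -0.13. Its longer transcript ENST00000382199 was at 17.0 and 20.3 FPKM, with intervals that did not overlap (15.96 to 18.02 and 19.1 to 21.5). ENST00000346192, which has 1 exon fewer, was at 11.08 and 10.51 FPKM, with overlapping intervals. The share of the shorter form was 39.5% in RBMS1-depleted and 34.1% in control cells.

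The translational silencers TIA1 and TIAL1, which gather stalled mRNAs into stress granules, were listed over several transcripts. TIA1 (chromosome 2, 70209444 to 70248660, minus strand) was at 8.46 FPKM after RBMS1 knockdown and 8.11 FPKM in the control, with overlapping intervals and a log2 ratio of 0.05. Of the 20 release 29 transcripts ENST00000282574 was at 3.21 and 2.47 FPKM, and ENST00000433529 was at 1.76 FPKM in control cells and listed at 0 in RBMS1-depleted cells. In each library 2 assembled transcripts held the rest, so reference transcripts alone gave -0.31, against 0.05 for the gene. TIAL1 (chromosome 10, 119571802 to 119597029, minus strand) was at 36.5 and 39.0 FPKM, with overlapping intervals and a log2 ratio of -0.09. Its main transcript ENST00000436547 was at 22.6 and 19.7 FPKM, and an assembled transcript was at 10.1 FPKM in both libraries. ENST00000489822, a form annotated as retaining an intron, was at 6.38 FPKM in control cells and listed at 0 in RBMS1-depleted cells. Without it, counting coding and assembled transcripts, the log2 ratio of TIAL1 was 0.16, so its sign also depends on the transcripts summed.

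FPKM is a level per length, so the 10 genes can be ordered by it. In control cells the order from the highest was KHSRP, ZFP36L1, TIAL1, ELAVL1, IGF2BP2, ZFP36L2, TIA1, ZC3H12A, ZFP36 and RC3H1. The intervals of neighbours overlapped for TIAL1 and ELAVL1, ELAVL1 and IGF2BP2, ZFP36L2 and TIA1, TIA1 and ZC3H12A, and ZFP36 and RC3H1, so those pairs have no settled order. In RBMS1-depleted cells the order was the same except that ELAVL1 stood before TIAL1, ZFP36 moved to the place after ZFP36L2, and ZC3H12A was last. In control cells ZFP36 was the lowest of its family and ZC3H12A stood above it, with intervals of 7.15 to 8.94 and 4.78 to 6.62. In RBMS1-depleted cells ZFP36 stood above ZC3H12A, with intervals of 8.85 to 11.2 and 1.73 to 2.77. Neighbours whose intervals overlapped in RBMS1-depleted cells were ZFP36L1 and ELAVL1, ELAVL1 and TIAL1, and ZFP36 and TIA1.

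The other genes around these proteins were described by lists, which were chosen with earlier results of these data known. Of 52 other proteins that bind mRNA 3′-UTRs, 39 had a mean of at least 1 FPKM. Their median log2 ratio was -0.05, with 24 lower and 15 higher, where 47.2% of all genes were lower. Of the 39, 2 fell at least 2-fold, where 2.72% of all genes did. ZC3H12C, a paralog of ZC3H12A with the same kind of nuclease domain, was at 8.35 FPKM after RBMS1 knockdown and 23.7 FPKM in the control, giving a log2 ratio of -1.40. RBM38, which binds AU- and U-rich sequences of the mRNA of CDKN1A, was at 2.51 and 6.32 FPKM, for a log2 ratio of -1.06 that was -0.73 with reference transcripts only. None rose 2-fold. The highest were HNRNPD (AUF1), at 209 and 161 FPKM with a log2 ratio of 0.37 that was 0.94 with reference transcripts only, and RC3H2, the paralog of RC3H1, at 18.1 and 13.8 FPKM with a log2 ratio of 0.37. Of the 4 members of the ZC3H12 family only ZC3H12A and ZC3H12C reached a mean of 1 FPKM, and both were lower in RBMS1-depleted cells.

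The ZFP36 proteins are held inactive by the p38 and MK2 kinases, which phosphorylate them for binding by 14-3-3 proteins, and are released by phosphatases. Of 21 genes of this pathway 19 were measured, with a median log2 ratio of 0.12, 7 lower and 12 higher, where 47.2% of all genes were lower. None differed 2-fold, where 5.63% of all genes did. MAPK14 (p38α) was at 38.1 FPKM after RBMS1 knockdown and 38.6 FPKM in the control, and MAPKAPK2 (MK2) at 32.9 and 32.7 FPKM. These 2 are named for their role, after their values were seen. The lowest were SFN (14-3-3σ), at 22.5 and 34.7 FPKM with a log2 ratio of -0.60, and AKT1, with a log2 ratio of -0.29 that was 0.21 with reference transcripts only. The highest were DUSP1, the phosphatase of p38 and itself an AU-rich mRNA, at 24.5 and 16.7 FPKM with a log2 ratio of 0.53 that was 1.13, past 2-fold, with reference transcripts only, and MAPKAPK5, with a log2 ratio of 0.34 that was -0.64 with reference transcripts only. RNA levels do not show the phosphorylation of these proteins.

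The mRNAs that such proteins are known to act on were described by a list of textbook examples. Of 59 AU-rich mRNAs 53 were measured, with a median log2 ratio of -0.24. With 1 FPKM added, 16 of these fell at least 2-fold and none rose at least 2-fold, where 2.72% of all genes were at least 2-fold lower and 2.91% at least 2-fold higher. The list was chosen with the fall of inflammatory genes in these libraries already known, so its count is not independent evidence of a direction. CXCL1 and CXCL8, chemokines that draw neutrophils, were at 1.81 and 4.18 FPKM in RBMS1-depleted cells and at 21.6 and 28.2 FPKM in control cells, log2 ratios of -3.01 and -2.49. The colony-stimulating factor CSF2 was at 6.24 and 36.1 FPKM, for a log2 ratio of -2.36. CSF3, which acts on granulocytes, was at 0.175 FPKM with an interval of 0.00347 to 0.818 and at 6.77 FPKM, for a log2 ratio of -2.73. The cytokines IL1B, IL1A, IL11 and IL6 had log2 ratios of -2.15, -2.08, -1.79 and -1.61. The others included SERPINB2, BIRC3, THBS1, JUN, CXCL3, CXCL2 and VEGFA, with log2 ratios from -2.36 to -1.07. THBS1, at 178 and 503 FPKM, gave 6.37 on the log2 scale when only reference transcripts were summed, so its direction rests on assembled transcripts. Not all AU-rich mRNAs were lower: 32 of the 53 were lower and 21 higher in RBMS1-depleted cells, where 47.2% of all genes were lower. The highest were CTGF at 77.7 and 42.7 FPKM, for a log2 ratio of 0.85, and KLF2 at 5.16 and 2.54 FPKM, 2.03-fold by FPKM and 0.80 as a log2 ratio.

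The stem-loop mRNAs read by ZC3H12A and RC3H1 were described in the same way. Of 21 listed, 12 were measured, with a median log2 ratio of -0.89, and 6 fell at least 2-fold, among them ZC3H12A, already counted above, where 2.72% of all genes did. This list too was chosen with the fall of inflammatory genes known. They were LCN2, whose low value after knockdown has an interval of 0.00402 to 1.08, at 0.199 FPKM after RBMS1 knockdown and 35.3 FPKM in the control with a log2 ratio of -4.92, then CXCL1, IL6, ZC3H12A, CXCL3 and CXCL2. Only LCN2 of these 6 is neither a listed AU-rich mRNA nor one of the 10 binding proteins. The highest were ID1, at 63.7 and 42.0 FPKM with a log2 ratio of 0.59, and NFKBID, at 2.03 and 1.95 FPKM with a log2 ratio of 0.04 that was 1.05, past 2-fold, with reference transcripts only.

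**Figure D2:**
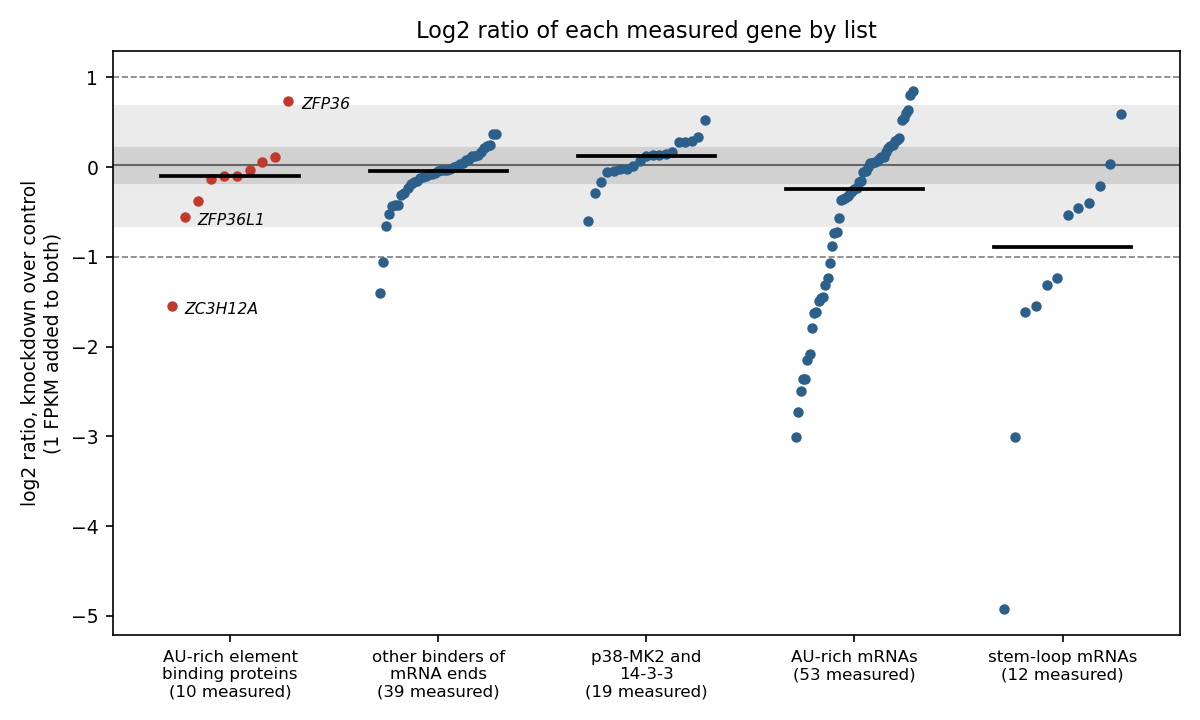
Log2 ratio of RBMS1-depleted over control cells, with 1 FPKM added to both, for each measured gene of 5 lists sorted from low to high, with the binding proteins in red and a black bar at the median of each list. The grey line and bands are the median and the 25% to 75% and 5% to 95% ranges of all 11222 genes, and the dashed lines mark 2-fold; 7 of the 10 binding proteins lie between -0.38 and 0.11, while 16 of 53 AU-rich mRNAs lie below -1.

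Whether mRNAs with a nonamer differed as a class was read from all 10022 genes with a 3′-UTR. The 812 genes with the nonamer had a median log2 ratio of 0.01 and the 9210 genes without it 0.02. Of all 10022 genes 2.18% were at least 2-fold lower and 2.21% at least 2-fold higher. At least 2-fold lower were 2.71% of the genes with it and 2.13% of those without it, and at least 2-fold higher were 1.97% and 2.23%. For the 638 genes with 1 match the median was 0.02, and for the 174 genes with 2 or more it was -0.03. Among short, middle and long 3′-UTRs the genes with the nonamer had medians of 0.01, 0.02 and 0.01. The share at least 2-fold lower was 6.25% of 48 genes with the nonamer against 2.25% of those without it among short 3′-UTRs, 4.98% of 201 against 1.75% among middle ones, and 1.60% of 563 against 2.41% among long ones. These shares rest on 3, 10 and 9 genes with the nonamer, of which 2, 7 and 1 are in the list of AU-rich mRNAs described above, chosen with their fall known. Without the listed mRNAs the shares were 2.22% against 2.22% among short, 1.58% against 1.67% among middle and 1.43% against 2.38% among long 3′-UTRs, a comparison made after these shares had been seen.

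The listed AU-rich mRNAs were also split by the nonamer. As the list was chosen with the fall of these cytokines known, and they make up much of the group with the nonamer, the split is a description and not independent of that choice. Of the 18 with the nonamer 10 fell at least 2-fold and the median log2 ratio was -1.27. Of the 33 without it 5 fell at least 2-fold, and the median was 0.04. Of all 10022 genes 2.18% did. MYC and VEGFA have a 3′-UTR under 10 nt in the transcript used and were not placed. The 10 with the nonamer that fell were CXCL1, CXCL2, CXCL3, CXCL8, CSF2, IL1B, IL11, BIRC3, SERPINB2 and THBS1, and the 5 without it that fell included CSF3, IL1A, IL6 and JUN. The fall of THBS1 rests on assembled transcripts, as its log2 ratio was 6.37 with reference transcripts only. The 4 binding proteins that carry the nonamer, at log2 ratios of 0.74 (ZFP36), 0.11 (ELAVL1), -0.03 (ZFP36L2) and -0.55 (ZFP36L1), showed no common direction. ZC3H12A, the only one of the 10 to fall 2-fold, has neither the nonamer nor the heptamer TATTTAT in its 3′-UTR, and its 43.5% of A and U was the lowest share of the 10. KHSRP and IGF2BP2, at log2 ratios of -0.38 and -0.13, also lack both motifs.

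**Figure D3:**
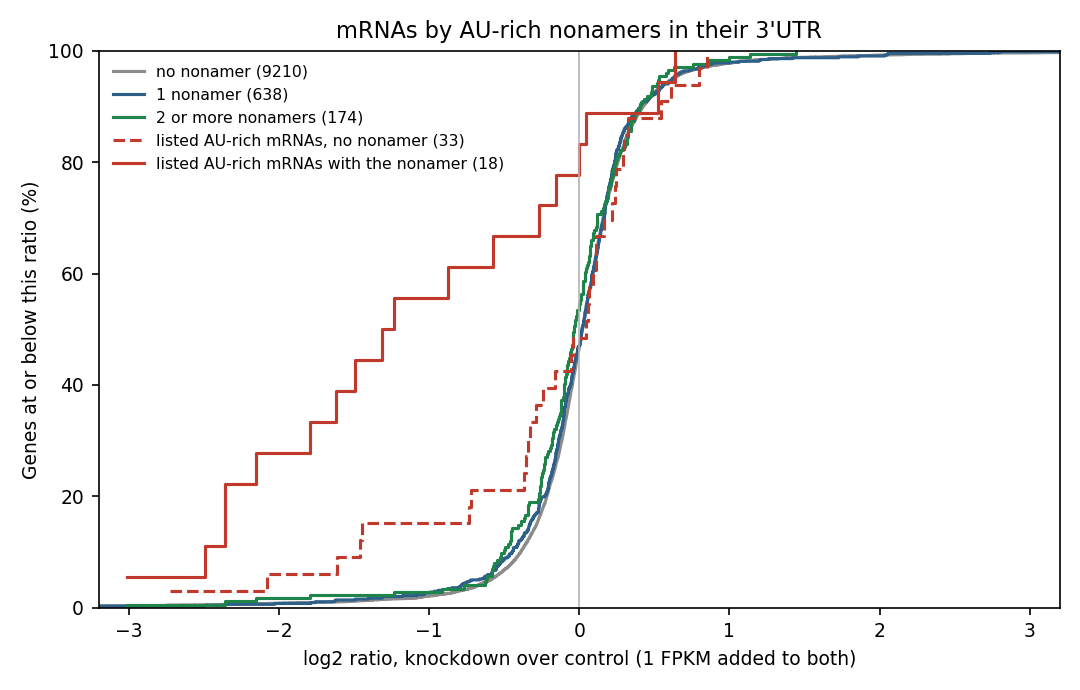
Cumulative share of genes, in percent, at or below each log2 ratio of RBMS1-depleted over control cells, for genes with no, 1 or at least 2 nonamers in the 3′-UTR and for the listed AU-rich mRNAs with and without it, with the number of genes in brackets. The 3 classes over all genes lie on each other around 0, and the 18 listed AU-rich mRNAs with the nonamer lie to the left, with a median of -1.27.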

How the data were processed

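Total RNA of MDA-MB-231 cells was extracted with Trizol and sequenced as 1 library per group. The submitters' processing notes name Bowtie2 2.0.6, TopHat2 2.0.9, Cufflinks 2.1.1 and Cuffdiff 2.1.1, and the strand and read length are not given in the sources used here. For each library the authors deposited a transcript file with the FPKM and 95% interval of Cufflinks among the other attributes of a line, and a table of 7236 transcripts with FPKM of both libraries on another scale. The table's columns of log2 fold change, p-value and q-value, which come from the comparison made by the authors, were not used. As the table holds only part of the transcripts, absence from it says nothing.

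Transcripts were joined to GENCODE release 29 (GRCh38) by Ensembl identifier, and 98.1% started at the annotated position in both libraries. Gene FPKM was the sum of reference transcripts, of older Ensembl transcripts and of assembled transcripts sharing at least 1 intron on the same strand. Intronless assembled transcripts were left out, and transcripts given to no gene held 70.7% of all FPKM in the knockdown and 71.6% in the control library. Overlapping or near-identical genes can share reads. Log2 ratios used a pseudocount of 1 FPKM and a mean of at least 1 FPKM, and a gene was called at a 2-fold difference. Depth was estimated from the steps of the intervals, which gave whole numbers of fragments within 0.1 for 81.4% of 27714 single-exon transcripts in the knockdown and 80.9% of 29808 in the control library. The members and lists were chosen with earlier results of these data known. Named are the 10 members, RBMS1, and of each list of measured genes the 2 lowest, the 2 highest and any gene at least 2-fold different, beside those marked as named after their values were seen. Outside this rule ESR1 and PTPRC are named as examples of markers below the filter, and MYC because it was not placed by its 3′-UTR. One gene that this rule picks is left out of the text. Alternatives were the pseudocount, the filter, the scaling, the transcripts summed, the threshold, the motif and the 3′-UTR searched. The assignment and the depth estimate were tested on simulated data. Python 3.11.15 with numpy 2.4.6, pandas 2.3.3 and matplotlib 3.10.9 was used.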

Additional observations from a re-analysis of the deposited data

How the results depend on the processing

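No paired analysis was possible because each of both groups is a single library. Of the 10 binding proteins 1 was at least 2-fold different under 10 of 13 alternatives, while the share of all genes at least 2-fold different ran from 2.25% with 5 FPKM added to 10.04% with reference transcripts only. The count was 0 with 5 FPKM added before the log2, 0 with a mean of at least 5 FPKM, where ZC3H12A, whose mean is 4.92 FPKM, is no longer tested, and 2 at 1.5-fold. The RBMS1 log2 ratio was -1.73 with 5 FPKM added and between -2.65 and -1.73 throughout. The count of AU-rich mRNAs at least 2-fold lower was 10 with a mean of at least 5 FPKM, as 42 of them are then tested, and between 12 and 16 otherwise. The share of all genes at least 2-fold lower was 1.90% with that filter, 1.16% with 5 FPKM added and up to 4.83% with reference transcripts only. The median of the binding proteins lay between -0.13 and -0.01, and that of genes with the nonamer between -0.02 and 0.02 over 17 alternatives, among them the heptamer and the longest 3′-UTR of each gene. Scalings moved the median of all genes to between -0.0087 and -0.0037 and changed the sign of no binding protein. Of the values of single binding proteins 11 moved beyond the range that their within-library intervals allow, all of them by the pseudocount, the transcripts summed or the source of the values. Filters on low values cannot move the ratio of a single gene. ZC3H12A was at -1.90 with 0.1 FPKM added, and ZFP36 lay between 0.50 and 0.83. In the deposited table of both libraries minor transcripts of ELAVL1, IGF2BP2 and TIA1 gave -0.76, -0.67 and 1.03. Alternatives on older Ensembl transcripts, intronless transcripts, the longest 3′-UTR and all those on the count of AU-rich mRNAs were chosen after seeing the data. The absence of replicate cultures, a single knockdown line and transcripts split differently by Cufflinks in both libraries limit every value.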

Other observations

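Other 3′-UTR sequences were counted in the same 10022 genes. A run of 8 T was found in 34.1% of the 3′-UTRs, with a median log2 ratio of 0.01 against 0.03 for genes without it. The Pumilio motif TGTANATA was found in 26.6%, with a median of 0.02 both with and without it. Of the binding proteins the 3′-UTR of RC3H1 held 39 overlapping runs of 8 T and 2 Pumilio motifs, the most of the 10.

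Several relatives of the binding proteins were listed at or near 0 in both libraries. The neuronal ELAVL2, ELAVL3 and ELAVL4 were listed at 0 in both. A listed 0 can be a failed estimate, as the widely expressed FXR2 was also listed at 0 in both libraries, as were all release 29 transcripts of ELAVL1. IGF2BP1 was at 0.00849 FPKM in RBMS1-depleted and 0.115 FPKM in control cells. ZC3H12B was at 0.256 and 0.467 FPKM and ZC3H12D at 0.0497 and 0.0402 FPKM. Among the mRNAs best known as targets of ZFP36, TNF was listed at 0 after RBMS1 knockdown and at 0.0694 FPKM in the control, and PTGS2 was at 0.154 and 0.355 FPKM, both below the level asked of the genes counted. These genes are named for their place in the families and lists, after their values were seen.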
